A study of Gallus gallus with 4 samples.

Results

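The redox genes *OSGIN1*, *TXNRD1*, *GLRX* and *GSTA1*, were followed in chicken breast muscle. They are 4 of the 17934 gene IDs in the deposited expression tables, and they were selected on their measured expression differences between these same libraries. The values below therefore describe them, and no test was made on them. The 4 libraries came from Xinghua chickens (XH, a slow-growing Chinese native breed) with low body weight (XHl) or high body weight (XHh), and from Recessive White Rock chickens (WRR, a fast-growing breed) with low body weight (WRRl) or high body weight (WRRh). Each library was 1 pool of equal RNA from 3 female birds at 7 weeks of age, so the spread between birds was not measured. The breeds came from different suppliers, so breed and supplier cannot be told apart. Mean body weight was 207.6 g in XHl and 305.8 g in XHh, against 695 g in WRRl and 1064 g in WRRh. Even the heavier XH pool was far lighter than the lighter WRR pool, so breed and body weight cannot be told apart either. No treatment was given, and the comparisons asked which muscle genes differed between breeds and between the body weight tails within a breed.

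Muscle fibres produce reactive oxygen species during respiration and contraction, and thiol systems keep their proteins reduced. Thioredoxin reductase passes electrons from NADPH to thioredoxin, which reduces protein disulfides and supplies the peroxiredoxins. Glutathione works in parallel: glutaredoxins remove it from protein thiols, and glutathione transferases couple it to electrophiles and lipid peroxidation products. In mammals, the transcription factor NRF2 drives many of these genes, among them *TXNRD1* and *OSGIN1*.

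Expression is given as FPKM, a fragment count scaled for transcript length and for the mapped fragments of the library, so levels of different genes can be set side by side. Positions are those in the deposited tables, which name no genome build. Absolute sequencing depth could not be derived from the FPKM values. The steps between low values put the depth of XHl at 1.51, XHh at 0.863 and WRRl at 0.845 times that of WRRh. Of 8 markers of skeletal muscle fibres 7 had a row, with a summed level of 19734 FPKM in XHl and 23978 FPKM in XHh, against 20617 FPKM in WRRl and 21665 FPKM in WRRh; among them *TNNC2* was listed at 0 in all 4 libraries. The median gene lay slightly lower in XH, with a log2 ratio of (FPKM + 1) of -0.23 for XHl over WRRl and -0.25 for XHh over WRRh. It stood at 0.05 for WRRl over WRRh and also at 0.05 for XHl over XHh.

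*OSGIN1* (ENSGALG00000003323, oxidative stress induced growth inhibitor 1) showed the steadiest breed difference of the genes. It had 6.30 FPKM in XHl and 8.83 FPKM in XHh, against 51.5 FPKM in WRRl and 75.3 FPKM in WRRh. Both XH pools were low and both WRR pools high, with no overlap. The log2 ratio was -2.85 for XHl over WRRl and -2.96 for XHh over WRRh, which placed it at rank 54 from the lowest of 10535 genes and at rank 15 from the lowest of 10332 genes. In plain FPKM, the WRR value was 8.19-fold the XH value in the low weight pools and 8.52-fold in the high weight pools. The body weight contrasts were small and ran the same way in each breed, with log2 ratios of -0.54 for WRRl over WRRh and -0.43 for XHl over XHh. The gene model lies on chromosome 11 from 2583527 to 2595503. The next model after it, which has no gene symbol, was also lower in XH. It had 0.691 FPKM in XHl and 0.985 FPKM in XHh, against 6.82 FPKM in WRRl and 2.51 FPKM in WRRh. *NECAB2*, the model before *OSGIN1*, was near the floor, with log2 ratios of 0.31 for XHl over WRRl and 0.27 for XHh over WRRh.

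*TXNRD1*, thioredoxin reductase 1, was carried by the gene model ENSGALG00000012714, which the tables label with a protein accession only. It was the least abundant of the genes in XH muscle, with 3.72 FPKM in XHl and 2.93 FPKM in XHh, against 11.6 FPKM in WRRl and 6.78 FPKM in WRRh. XH pools again lay below WRR pools, and the low weight pool was the higher of each breed. The log2 ratio was -1.41 for XHl over WRRl and -0.98 for XHh over WRRh. The second ratio fell just short of 2-fold on the log2(FPKM + 1) scale, although plain FPKM differed 2.31-fold, so it sat at the edge of the size threshold. Within breeds the log2 ratio was 0.69 for WRRl over WRRh and 0.26 for XHl over XHh. The model lies on chromosome 1 from 56627721 to 56653915, next to *NFYB* and *HCFC2*, whose log2 ratios for XHl over WRRl were 0.54 and 0.03. Farther along the chromosome, *GLT8D2* had log2 ratios of -1.38 for XHl over WRRl and -1.31 for XHh over WRRh, and *SLC41A2* on the other side had -1.05 in both contrasts. *CHST11*, the nearest named model on that side, had -0.45 and -0.24. Its levels lay near the floor, where the added 1 shrinks ratios. It had 0.524 FPKM in XHl and 0.529 FPKM in XHh, against 1.08 FPKM in WRRl and 0.800 FPKM in WRRh.

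*GLRX* (ENSGALG00000014676, glutaredoxin, a cytosolic thiol-disulfide oxidoreductase that uses glutathione) was the most abundant of the genes in every library. It had 28.8 FPKM in XHl and 130.4 FPKM in XHh, against 236 FPKM in WRRl and 114 FPKM in WRRh. A single low pool, XHl, and a single high pool, WRRl, stood apart from XHh and WRRh, which lay close together. The log2 ratio was -2.99 for XHl over WRRl, but 0.20 for XHh over WRRh. Body weight ran in opposite directions in the breeds: the log2 ratio was -2.14 for XHl over XHh, rank 5 from the lowest of 10019 genes, and 1.05 for WRRl over WRRh. The mean log2 difference of XH minus WRR was -1.40 over all 4 libraries and -0.33 without XHl, so this library carried most of it. It was -2.47 without XHh, -0.87 without WRRl and -1.92 without WRRh. The model lies on chromosome Z from 56240541 to 56243412.

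*GSTA1* (ENSGALG00000016325), an alpha-class glutathione transferase, had 6.37 FPKM in XHl and 7.08 FPKM in XHh, against 58.0 FPKM in WRRl and 20.3 FPKM in WRRh. Its XH pools were nearly level with each other, and WRRl stood well above WRRh. The log2 ratio was -3.00 for XHl over WRRl and -1.40 for XHh over WRRh. Within breeds it was 1.47 for WRRl over WRRh, rank 87 from the highest of 10700 genes, and -0.13 for XHl over XHh. The mean log2 difference of XH minus WRR was -2.20 over all 4 libraries, -2.13 without XHl, -2.27 without XHh, -1.47 without WRRl and -2.94 without WRRh. The model lies on chromosome 3 from 91202950 to 91209673. Alpha-class transferases form a family of closely related copies, so reads may be divided among them and the *GSTA1* level is uncertain to that extent.

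**Figure D1:**
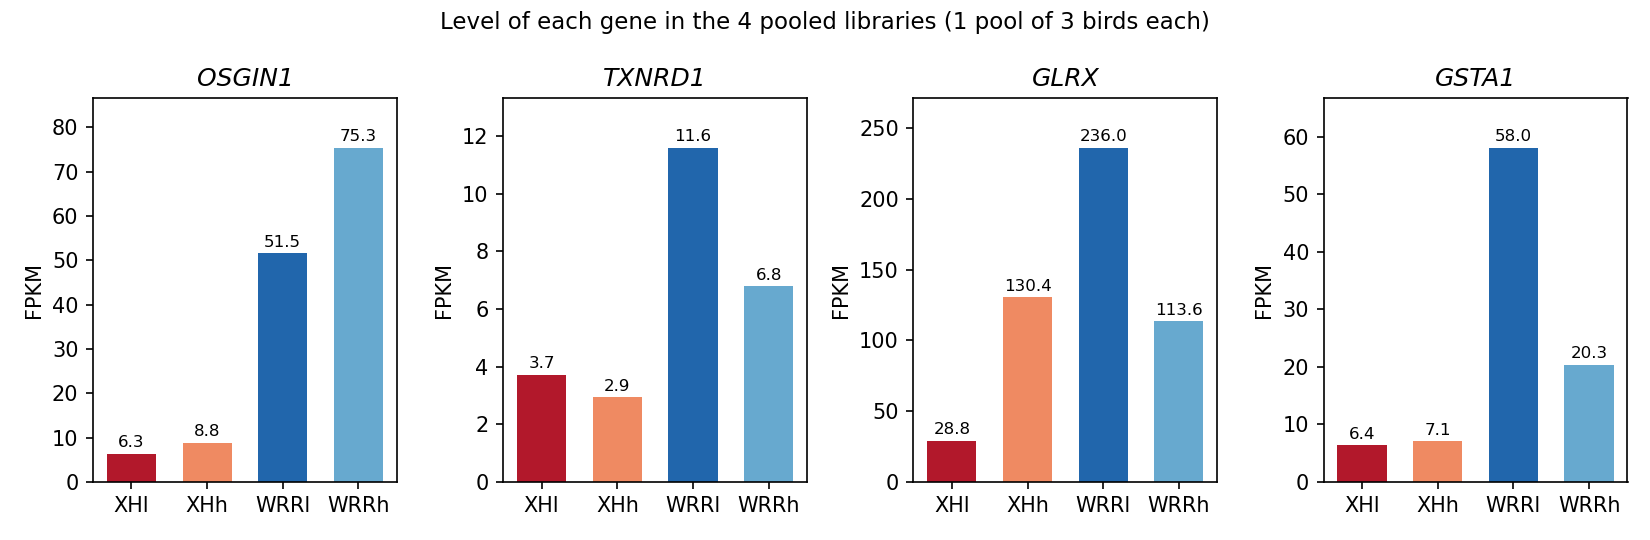
Bars give the FPKM of each gene, 1 panel a gene, in the pooled libraries XHl, XHh, WRRl and WRRh; each bar is a single pool, so there are no error bars, and each panel has its own axis from 0. *OSGIN1* splits by breed, with 6.30 and 8.83 FPKM in the XH pools and 51.5 and 75.3 FPKM in the WRR pools, whereas *GLRX* has its lowest bar in XHl (28.8 FPKM) and its highest in WRRl (236 FPKM).

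The order of levels differed among the genes. *OSGIN1* ran XHl, XHh, WRRl, WRRh from low to high, *TXNRD1* ran XHh, XHl, WRRh, WRRl, *GLRX* ran XHl, WRRh, XHh, WRRl, and *GSTA1* ran XHl, XHh, WRRh, WRRl. With 1 pool a condition, it could not be judged which neighbours in these orders differed beyond the spread between birds. *OSGIN1*, *TXNRD1* and *GSTA1* had both XH pools below both WRR pools and *GLRX* did not; among the 10669 genes averaging 1 FPKM or more, 51.8% had this arrangement. *OSGIN1* and *GSTA1* were at least 2-fold lower in XH in both breed contrasts, as were 4.28% of the 10128 genes that could be compared in both. All 4 genes were at least 2-fold lower in XHl than in WRRl, where 12.3% of genes were lower and 14.1% were 2-fold apart; with a pseudocount of 5 in place of 1, *TXNRD1* had a log2 ratio of -0.93 in this contrast and fell short of 2-fold. In XHh against WRRh, 2 of 4 were at least 2-fold lower, where 7.29% of genes were lower and 9.21% were 2-fold apart. In WRRl against WRRh, *GLRX* and *GSTA1* were at least 2-fold higher and none was lower, where 3.28% of genes were higher, 0.748% lower and 4.03% 2-fold apart. In XHl against XHh, *GLRX* was at least 2-fold lower and none was higher, where 0.539% of genes were lower, 0.779% higher and 1.32% 2-fold apart. The genes were selected on these contrasts, so nothing is read from the counts.

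**Figure D2:**
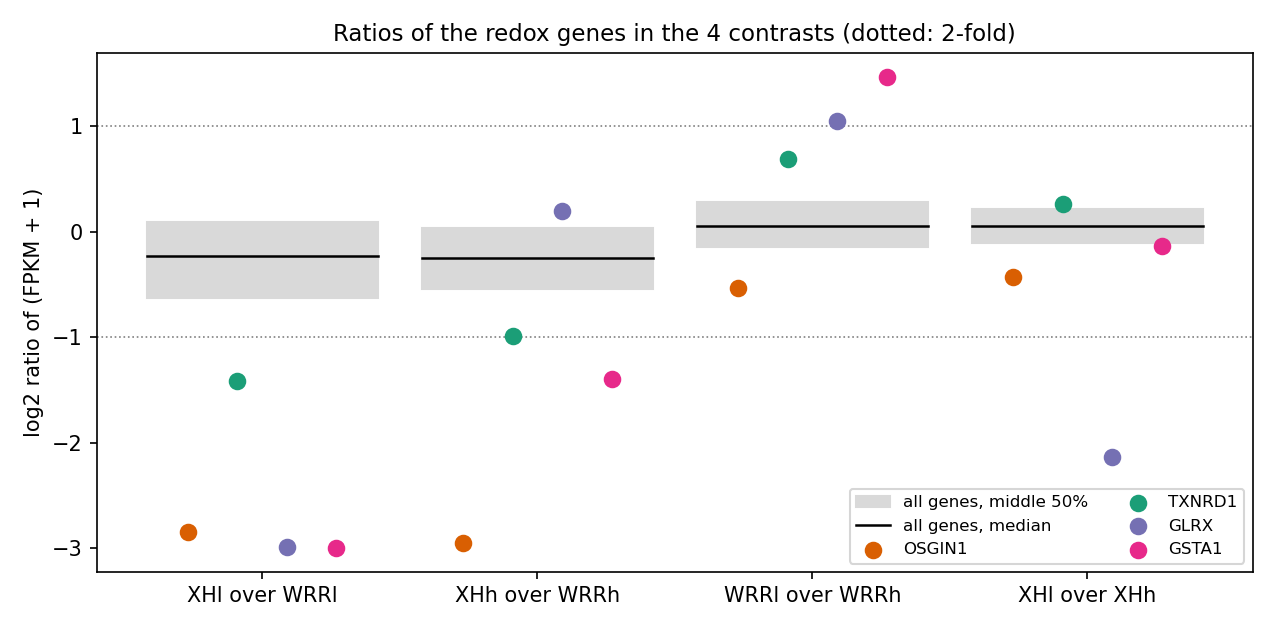
Points give the log2 ratio of (FPKM + 1) of each gene in XHl over WRRl, XHh over WRRh, WRRl over WRRh and XHl over XHh, and dotted lines mark a 2-fold difference. *OSGIN1* stays near -2.85 and -2.96 in the breed contrasts, while *GLRX* has -2.99 in XHl over WRRl and 0.20 in XHh over WRRh.

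The highest level was 12.0-fold the lowest for *OSGIN1*, 9.12-fold for *GSTA1*, 8.19-fold for *GLRX* and 3.95-fold for *TXNRD1*. The genes also differed in how the body weight contrast compared between breeds. The log2 ratio of XHl over XHh minus that of WRRl over WRRh was -3.19 for *GLRX*, -1.60 for *GSTA1*, -0.43 for *TXNRD1* and 0.11 for *OSGIN1*. *GLRX* belonged to 6 of 9877 genes (0.0607%) that were at least 2-fold lower in XHl than in XHh and at least 2-fold higher in WRRl than in WRRh. Another of the 6 was *SCARNA6*, a small nuclear RNA of Cajal bodies, with 1.99 FPKM in XHl and 9.08 FPKM in XHh, against 6.93 FPKM in WRRl and 2.39 FPKM in WRRh. The other 4 carried no gene symbol. For *GSTA1* the pattern came from WRR alone, since its XH pools differed by a log2 ratio of -0.13.

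**Figure D3:**
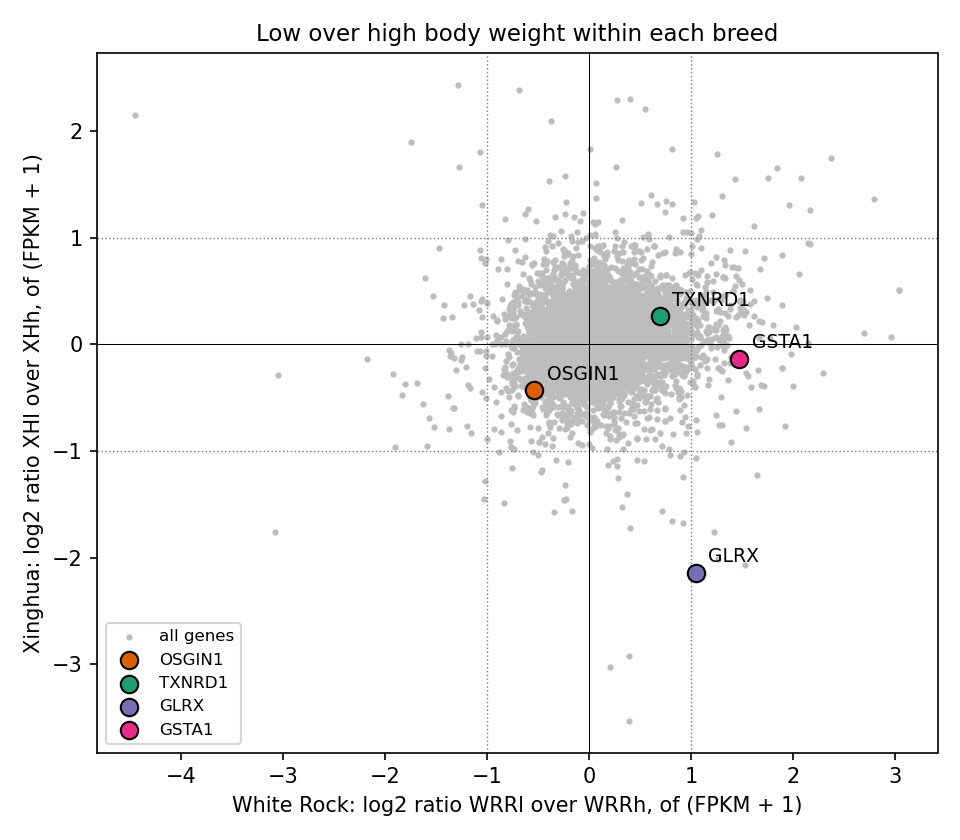
Each grey point is a gene, with the log2 ratio of (FPKM + 1) of low over high body weight in WRR against that in XH, and the named points are the 4 redox genes. *GLRX* lies far from the cloud, at 1.05 in WRR and -2.14 in XH, and *OSGIN1* is negative in both breeds.

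The genes were set against their relatives. *OSGIN2*, the paralog of *OSGIN1*, was low everywhere, with 1.02 FPKM in XHl and 0.757 FPKM in XHh, against 1.83 FPKM in WRRl and 1.30 FPKM in WRRh. *GLRX2*, the mitochondrial glutaredoxin, had 43.5 FPKM in XHl and 51.1 FPKM in XHh, against 45.6 FPKM in WRRl and 46.4 FPKM in WRRh, but its model overlaps 2 others and its reads may be shared. *GLRX3*, an iron-sulfur glutaredoxin, had 102 FPKM in XHl and 80.1 FPKM in XHh, against 76.9 FPKM in WRRl and 84.1 FPKM in WRRh. Neither glutaredoxin paralog had the low XHl value of *GLRX*. *TXNRD2*, *TXNRD3*, *GLRX5* and *GSTA4* had no row under these symbols and were not analysed by name. RefSeq gives *GSTA3* as the symbol of *GSTA1*, so it was not counted as a relative.

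On chromosome 3, *GSTA1* sits among other gene models whose levels did not follow it in a block. *GSTA2*, the next model after it and also an alpha-class transferase, had 18.8 FPKM in XHl and 23.0 FPKM in XHh, against 17.3 FPKM in WRRl and 19.1 FPKM in WRRh. The model just before it, labelled only with a protein accession, had 10.1 FPKM in XHl and 19.9 FPKM in XHh, against 6.13 FPKM in WRRl and 9.01 FPKM in WRRh. RefSeq places *GSTA4* just before *GSTA1*, so this model may be *GSTA4*, which was not checked further. Both neighbours were higher in XH than in WRR within the same weight class, where *GSTA1* was lower. The model before that, also labelled with a protein accession, had 14.9 FPKM in XHl and 13.3 FPKM in XHh, against 24.6 FPKM in WRRl and 32.5 FPKM in WRRh. *TMEM14A*, beyond *GSTA2*, had 5.25 FPKM in XHl and 4.52 FPKM in XHh, against 17.1 FPKM in WRRl and 6.53 FPKM in WRRh, so its pools stood in nearly the order of *GSTA1*. It encodes a small membrane protein.

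**Figure D4:**
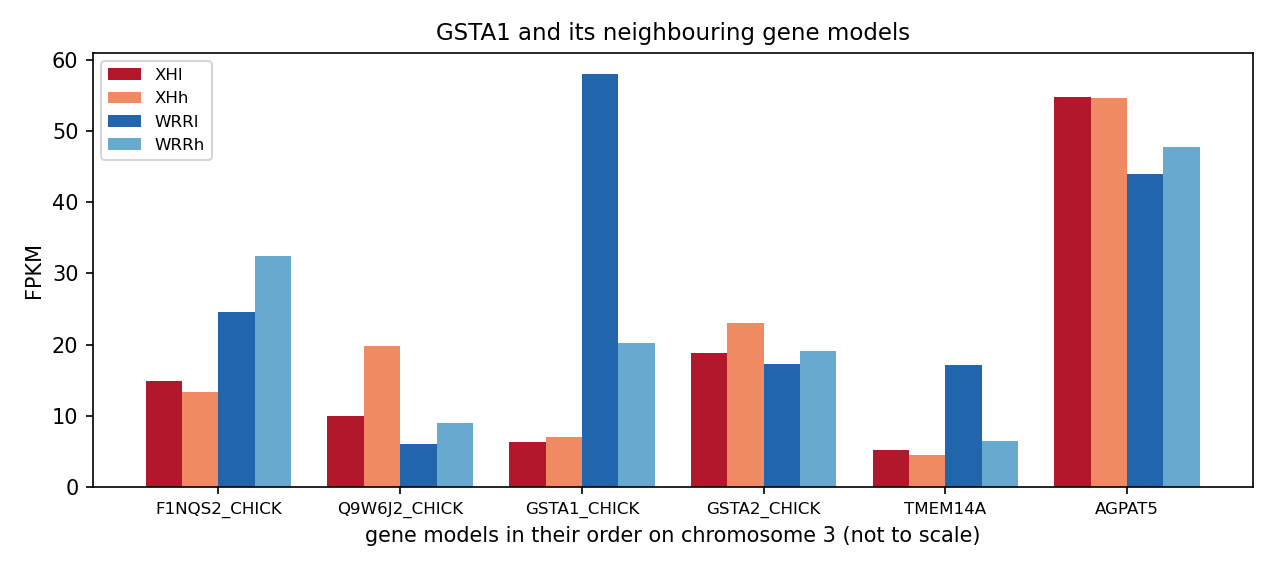
Bars give the FPKM in XHl, XHh, WRRl and WRRh of *GSTA1* and the gene models beside it, in their order on the chromosome and not to scale. *GSTA1* reaches 58.0 FPKM in WRRl, whereas *GSTA2* stays between 17.3 and 23.0 FPKM in all 4 pools.

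The genes whose pattern was most like each of these were found by the Euclidean distance between log2(FPKM + 1) profiles centred on their own mean, over 4 libraries and 4949 genes with a symbol, a mean of at least 5 FPKM and no value of 0. Closest to *OSGIN1* was *PLIN1*, the lipid droplet coat protein of fat cells, at a distance of 0.15. *PLIN1* had 0.583 FPKM in XHl and 1.30 FPKM in XHh, against 10.7 FPKM in WRRl and 14.5 FPKM in WRRh. *TAL2*, *THRSP*, *EMP1* and *C1QTNF6* followed at 0.70, 0.78, 0.99 and 1.02. The XH values of *PLIN1*, *TAL2* (0.370 FPKM in XHl and 1.38 FPKM in XHh) and *THRSP* (1.45 and 0.686 FPKM) lay near the floor. The added 1 shrinks ratios there, so the likeness of these genes to *OSGIN1* depends in part on it. *THRSP* is a regulator of fat synthesis.

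For *TXNRD1* the closest gene was *SH3BGRL3*, which encodes a thioredoxin-fold protein, at 0.037. *SH3BGRL3* had 80.7 FPKM in XHl and 67.6 FPKM in XHh, against 212 FPKM in WRRl and 135 FPKM in WRRh. *TXNRD1* was far less abundant, at 2.93 to 11.6 FPKM, so the added 1 shrinks its ratios more than those of *SH3BGRL3*. The likeness of these genes, and the first place of *SH3BGRL3*, therefore depend in part on the added 1. *TNFRSF1B*, *GNE*, *SCARA5* and *GFPT2* lay at 0.048 to 0.098. For *GSTA1* the closest was *ADSV* (adseverin, an actin-severing protein) at 0.26, with 4.49 FPKM in XHl and 5.04 FPKM in XHh, against 50.3 FPKM in WRRl and 18.5 FPKM in WRRh. *CLDN5*, *FN1*, *IL2RG* and *LIPA* lay at 0.28 to 0.38. *CLDN5* is a tight junction protein of endothelium, and *IL2RG* is a cytokine receptor chain of lymphocytes.

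Among the genes with a symbol, *GLRX* had no such near neighbour. Models without a symbol, some of which shared its opposite body weight ratios, were not compared. The closest gene with a symbol to *GLRX* was *COX7A2*, a subunit of cytochrome c oxidase, at 0.88. *COX7A2* had 22.4 FPKM in XHl and 48.5 FPKM in XHh, against 91.5 FPKM in WRRl and 65.9 FPKM in WRRh. *GNG10*, *KISHA*, *SPON1* and *TMEM80* lay at 0.94 to 1.09. Between the redox genes themselves the distances ran from 1.18 for *TXNRD1* and *GSTA1* to 2.23 for *OSGIN1* and *GLRX*. The distances above are the smallest among 4949 genes, so those of the fixed pairs cannot be judged against them.

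In a bulk library, fewer cells of a type and less RNA per cell cannot be told apart, and markers of other cell types moved along with some of these genes. The summed level of the 7 matched macrophage markers of 9 was 147 FPKM in XHl and 104 FPKM in XHh, against 574 FPKM in WRRl and 241 FPKM in WRRh. For the 6 T and B lymphocyte markers it was 65.7 FPKM in XHl and 30.8 FPKM in XHh, against 634 FPKM in WRRl and 227 FPKM in WRRh. Both sums were in the pool order of *TXNRD1*, and WRRl was also the highest pool of *GSTA1*.

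The 4 matched fibroblast markers of 6 summed to 923 FPKM in XHl and 1147 FPKM in XHh, against 2263 FPKM in WRRl and 1862 FPKM in WRRh. Of the 5 adipocyte markers 2 had a row. *PLIN1* had its pools in the order of *OSGIN1*, but *ADIPOQ*, the fat cell hormone adiponectin, did not. *ADIPOQ* had 62.9 FPKM in XHl and 68.6 FPKM in XHh, against 60.9 FPKM in WRRl and 70.3 FPKM in WRRh. The 2 matched erythrocyte markers of 10 summed to 83.1 FPKM in XHl and 37.3 FPKM in XHh, against 98.2 FPKM in WRRl and 142.8 FPKM in WRRh. *TEK*, the matched endothelial marker of 5, stayed between 8.69 and 10.8 FPKM. The fibroblast sum had its lowest value in XHl and its highest in WRRl, as *GLRX* had, but in XHh it lay below WRRh and *GLRX* did not. The part of these cell types in the levels of the redox genes was not tested.

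Other genes of redox metabolism were then tested, with the p53 pathway as 1 of the lists. The lists were chosen with earlier results of these data known. The 8 redox lists held 168 symbols, some of them an older and a newer name of the same gene, such as *SEPP1* and *SELENOP*. They also held *GSTA3*, which is *GSTA1* in RefSeq and had no row under that symbol. Of the symbols, 89 had a row and 79 averaged 1 FPKM or more. *NFE2L1*, *TALDO1*, *ERO1L* and *MAOB* were listed at 0 in all 4 libraries. Between the breeds, with weight class in the model, 5 of the 79 passed the test (6.33%). Among these 5, *SESN1* was higher in XH, and *TXN*, *SOD3* and *UGDH* were lower. Weight class is the low or high tail within a breed, so the model does not adjust the breeds for body weight itself. Over all genes 4.75% passed (1.22% higher and 3.53% lower in XH), so the share in the lists was near the background. The other 74 did not pass, and the median log2 difference of XH minus WRR was -0.34 in the lists and -0.24 over all genes. The test was limma on log2(FPKM + 1) with Benjamini-Hochberg adjustment over 10669 genes; the model has 1 residual degree of freedom. With 1 library left out, the weight class had to be dropped from the model, and the lone library of a breed was assumed to vary like the pair of the other. Of the 5 calls, 0 then remained without XHl, 0 without XHh, 1 (*SOD3*) without WRRl and 4 without WRRh, where 17 list genes passed in all. With all 4 libraries and breed alone in the model, 4 of the 5 remained and 8 list genes passed.

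*TXN*, thioredoxin, is the substrate of *TXNRD1* and fell in XH. It had 69.8 FPKM in XHl and 79.1 FPKM in XHh, against 167 FPKM in WRRl and 144 FPKM in WRRh, a log2 difference of -1.05 ± 0.15 (SE; adjusted p = 0.0483, limma). Of the 11 tested genes of the thioredoxin and peroxiredoxin list it was the one that passed. The peroxiredoxins *PRDX6* and *PRDX1* were the most abundant of the list, and neither passed. *PRDX1* had 133 FPKM in XHl and 145 FPKM in XHh, against 252 FPKM in WRRl and 200 FPKM in WRRh.

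*SOD3*, extracellular superoxide dismutase, had 18.5 FPKM in XHl and 17.8 FPKM in XHh, against 90.9 FPKM in WRRl and 57.5 FPKM in WRRh, a log2 difference of -1.94 ± 0.19 (SE; adjusted p = 0.0479, limma). *SESN1*, a sestrin that restrains growth signalling under stress, went the other way, with 670 FPKM in XHl and 462 FPKM in XHh, against 243 FPKM in WRRl and 191 FPKM in WRRh, a log2 difference of 1.36 ± 0.11 (SE; adjusted p = 0.0468, limma). The related *SESN3* had 1.77 FPKM in XHl and 2.86 FPKM in XHh, against 8.42 FPKM in WRRl and 3.85 FPKM in WRRh, and did not pass. These were the 3 genes of the superoxide and peroxide list that could be tested.

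*UGDH*, which makes UDP-glucuronate for conjugation, was the one of 14 tested NRF2 regulators and targets that passed. It had 13.0 FPKM in XHl and 10.2 FPKM in XHh, against 31.6 FPKM in WRRl and 21.9 FPKM in WRRh, a log2 difference of -1.13 ± 0.13 (SE; adjusted p = 0.0483, limma). The median log2 difference of the 14 was -0.02, and 7 of them lay below 0 in XHl over WRRl. *TKT*, transketolase, was at least 2-fold lower in XH in both breed contrasts, with 4.89 FPKM in XHl and 4.81 FPKM in XHh, against 27.2 FPKM in WRRl and 11.6 FPKM in WRRh, and did not pass. Other genes of the list went the other way. *BLVRA* was at least 2-fold higher in XHh (10.9 FPKM) than in WRRh (3.09 FPKM). *MAFG* was at least 2-fold higher in XHl (26.9 FPKM) than in WRRl (12.2 FPKM). Neither of these passed. *FTH1*, the ferritin heavy chain and most abundant of the list, had 2226 FPKM in XHl and 2410 FPKM in XHh, against 3976 FPKM in WRRl and 2374 FPKM in WRRh.

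Oxidant sources had the lowest median log2 difference of the 8 lists, -1.20 over 9 genes, of which 8 had an unadjusted p under 0.05 in limma, as had 3658 of 10669 genes in all. *CYBB*, the catalytic subunit of the phagocyte NADPH oxidase, had 0.83 FPKM in XHl and 0.62 FPKM in XHh, against 28.0 FPKM in WRRl and 6.98 FPKM in WRRh, and did not pass. *NCF4*, a cytosolic subunit of it, had 2.08 FPKM in XHl and 1.22 FPKM in XHh, against 8.07 FPKM in WRRl and 3.87 FPKM in WRRh, and did not pass. *NCF1*, whose model overlaps 3 others so that its reads may be shared, had log2 ratios of -2.18 for XHl over WRRl and -1.12 for XHh over WRRh. *XDH*, xanthine dehydrogenase, was listed at 0 in both XH pools, against 2.36 FPKM in WRRl and 0.742 FPKM in WRRh. The summed macrophage markers had their pools in the same order as *CYBB* and *NCF4*, and their part in these values was not tested.

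In the glutathione lists 0 of 8 transferases and 0 of 13 genes of synthesis, reduction and peroxidases passed in limma, with 5 of each list at an unadjusted p under 0.05; over all genes 3658 of 10669 were. Of the transferases, 2 were at least 2-fold lower in XHl than in WRRl: *MGST2* had 1.27 FPKM in XHl and 1.31 FPKM in XHh, against 8.08 FPKM in WRRl and 4.86 FPKM in WRRh, and *MGST1* had 14.7 FPKM in XHl and 14.2 FPKM in XHh, against 44.8 FPKM in WRRl and 25.5 FPKM in WRRh. Both encode microsomal transferases. Among the 13 others the median log2 difference was 0.03. *CHAC1*, which degrades glutathione, had 409 FPKM in XHl and 277 FPKM in XHh, against 42.3 FPKM in WRRl and 74.4 FPKM in WRRh, and did not pass. *GSR*, glutathione reductase, had 8.26 FPKM in XHl and 6.30 FPKM in XHh, against 13.4 FPKM in WRRl and 8.26 FPKM in WRRh. None of the 11 selenoprotein genes tested and none of the 10 genes of the p53 pathway tested passed in limma, with 4 and 3 of them at an unadjusted p under 0.05; *SEPP1*, the plasma selenium carrier, had 75.4 FPKM in XHl and 74.3 FPKM in XHh, against 159 FPKM in WRRl and 89.8 FPKM in WRRh.

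**Figure D5:**
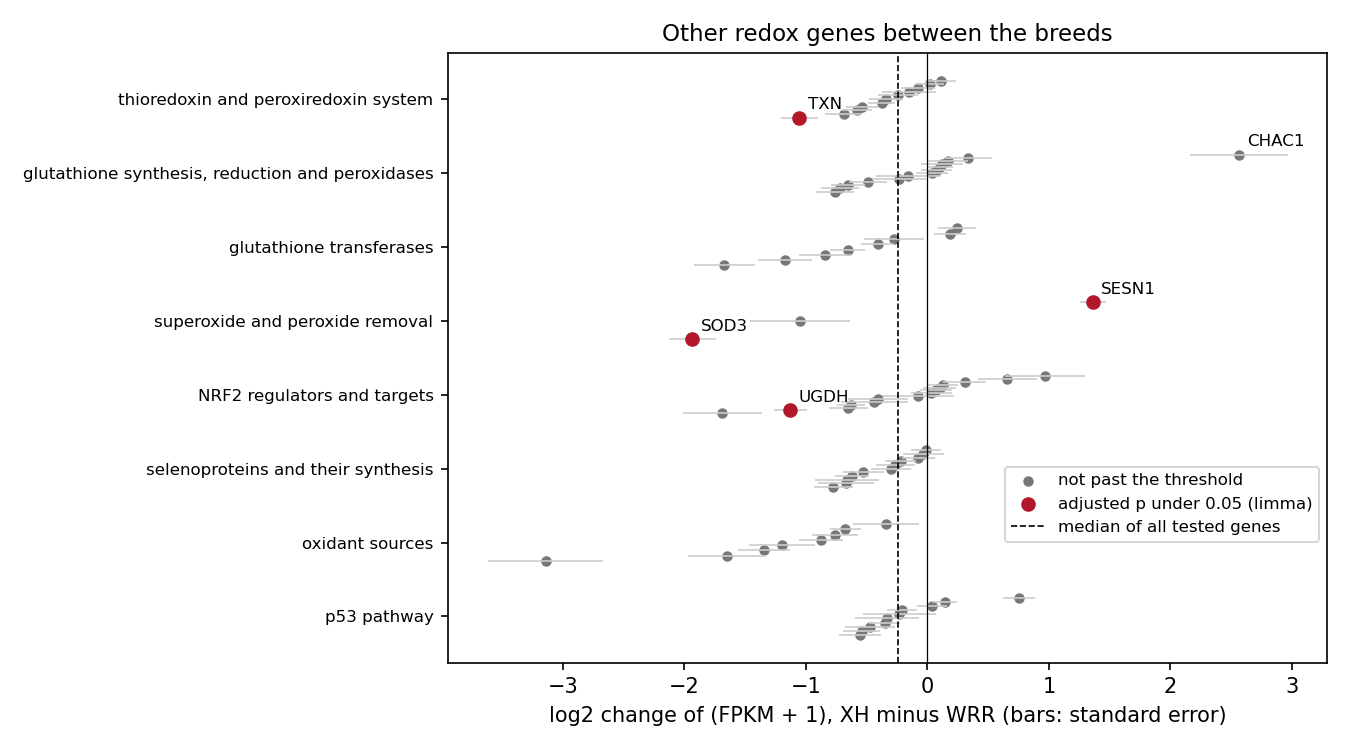
Points give the log2 difference of (FPKM + 1), XH minus WRR, with its standard error from limma, for tested genes of each redox list (1 gene is not drawn), and the colour marks the genes named above that passed. Oxidant sources spread to the left, down to -3.14 for *CYBB*, and glutathione synthesis genes centre near 0.03.

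Between low and high body weight, 0 of 79 list genes passed in limma, with 9 at an unadjusted p under 0.05, as had 619 of 10669 genes in all. Over all genes 0.0562% passed, 0.0375% higher and 0.0187% lower in the low weight pools. By size, 5 of 80 list genes were at least 2-fold higher in WRRl than in WRRh (among them *CYBB*, *NCF1*, *TKT* and *QSOX1*) where 3.28% of all genes were, and 0 were lower. In XHl over XHh, 0 of 75 list genes were 2-fold apart, where 1.32% of all genes were, so none of them shared the 2-fold lower XHl level of *GLRX*. Between the breeds, 14 of 79 list genes (17.7%) were at least 2-fold lower and 3 higher in XHl than in WRRl, where 12.3% of all genes were lower and 1.83% higher. In XHh against WRRh, 10 of 79 (12.7%) were lower and 3 higher, where 7.29% of all genes were lower and 1.93% higher.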

How the data were processed

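RNA of breast muscle from the 4 pools was sequenced. The authors aligned reads with TopHat (version not given in the sources used here), with at most 2 mismatches, and the deposited FPKM values came from Cuffdiff; the submitters' processing notes name galGal4, and positions are printed as the deposited tables give them, which name no build. Each library stands in 2 of 4 tables; 69 values listed at 0 in 1 table and above 0 in the other were read from the table that had them above 0. The authors' deposited fold change, p-value and q-value columns hold their own comparisons and were not used.

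The members and lists were chosen with earlier results of these data known. *TXNRD1* was identified as the gene ID whose row in the study's list of called genes holds the ratio and p-value given there for *TXNRD1*; RefSeq also places *TXNRD1* next to *NFYB* and *HCFC2*. *GSTA1* is a synonym of *GSTA3* in RefSeq. For 5 genes (such as *TXN* and *FTH1*) the protein entry name gave the row. No sequence was printed. Ratios used log2(FPKM + 1), with both values above 0 and a pair mean of at least 1 FPKM for a 2-fold count. The redox lists were fitted with limma 3.58.1 in R 4.3.3 (breed and weight class, trend and robust moderation, adjusted p threshold 0.05, genes averaging 1 FPKM or more). The fit was also run on simulated data with added breed changes. That run checked only that most large changes were found, and more often than small ones. Its noise was drawn from the fit itself and it had no weight effect, so it says nothing on the stability of the calls. The rest used Python 3.11.15. With 1 library a condition, its p-values take the deviation from additivity as error.

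Genes were named from the members, their family, list genes that passed or were among the 8 largest 2-fold differences in a contrast, the 2 most abundant of a list and the 5 most alike. Not every gene that met this rule was named in the results. Examples left out are *GLO1*, *GSTK1*, *RBX1*, *SELT* and *CYCS*, by abundance, and *SCLY*, by its ratio in XHh over WRRh. *GLO1* stayed between 508 and 615 FPKM, so the named genes lean toward those that differed. Others (*GSR*, *XDH*, *SCARNA6*, the neighbouring genes and those listed at 0) were chosen after their values were seen. Relative depth came from the most frequent ratio of values under 0.3 FPKM, shared within 1% by 112 of 615 genes in XHl, 142 of 488 in XHh and 166 of 490 in WRRl. Alternatives changed the pseudocount, the minimum, the scaling, the treatment of values of 0, the moderation and the model, and left out each library (then with the tested factor alone in the model). The result of 1 list gene is not reported here by name or drawn, though counts include it.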

Additional observations from a re-analysis of the deposited data

Results flagged for a closer look

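*GLRX* and *GSTA1* had low over high body weight ratios of opposite sign in the breeds, although for *GSTA1* the XH pools were nearly level. The log2 ratio of low over high weight in XH minus that in WRR was -3.19 for *GLRX* and -1.60 for *GSTA1*. For *GLRX* the ratio was -2.14 in XH and 1.05 in WRR. For *GSTA1* it was -0.13 in XH and 1.47 in WRR. With 1 pool a condition, neither difference was tested.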

How the results depend on the processing

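No direction reversed for the 4 genes: of 96 values under alternatives, 88 moved by less than the spread within breeds and 8, of *OSGIN1* and *TXNRD1*, by more. Leaving out 1 library could not move a value by more than this spread, which was computed from the same within-breed differences. Those values therefore say nothing on stability: the breed difference of *GLRX* went from -1.40 to -0.33 without XHl and still counted as within the spread. The limma calls were not stable. Between the breeds, list genes passing numbered 5 (1 higher, 4 lower in XH), against 4 with median-of-ratios factors (2 higher, 2 lower), 8 with a pseudocount of 0.1, 0 with a pseudocount of 5, 0 with no minimum, 9 with a minimum of 5 FPKM, 0 with quantile normalization, 25 with genes above 0 in all libraries, 0 with no trend or robust moderation, 8 with breed alone in the model, and 0 to 17 without 1 library. Over all genes, 507 passed (130 higher and 377 lower in XH), against 9 with a pseudocount of 5, 11 with no minimum, 1007 with a minimum of 5 FPKM, 325 with median-of-ratios factors (206 higher and 119 lower), 14 with quantile normalization, 1807 with genes above 0 in all libraries, 0 with no trend or robust moderation, 766 with breed alone, and 9 to 1210 without 1 library. Adjusted p of the 5 genes ranged from 0.0145 to 0.270 over the alternatives. Unadjusted, 37 list genes and 3658 genes in all had p under 0.05. Between the weight classes 6 genes passed, against 3 with a pseudocount of 5, 0 with genes above 0 in all libraries, 3 with no trend or robust moderation and 8 to 16 without 1 library; 619 had an unadjusted p under 0.05. The cause of these moves was not tested.

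Of list genes 2-fold apart, XHh over WRRh gave 13, against 5 with a pseudocount of 5, 7 with a minimum of 5 FPKM, 7 with median-of-ratios factors and 6 with quantile normalization. WRRl over WRRh gave 5, against 8 with a pseudocount of 0.1 and 1 with a pseudocount of 5. XHl over XHh gave 0, against 1 with a pseudocount of 0.1 and 1 with values of 0 kept. No replicate numbers paired the libraries; the weight class in the model compares the breeds within each class, and fits without 1 library had to drop it. Median-of-ratios factors brought the median gene to 0.01 in each contrast and turned the medians of thioredoxin, glutathione synthesis and selenoprotein genes in XHl over WRRl to 0.06, 0.15 and 0.02.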
